A study of Homo sapiens with 6 samples.

Results

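The genes described here are 35 genes of sterol synthesis and of the sterol regulatory element-binding proteins (SREBPs), out of 62252 annotated genes with a transcript in the quantification. They were chosen by name: 20 enzymes of the path from acetyl-CoA to cholesterol (with GGPS1, which branches off it), 5 genes of sterol sensing, 4 genes of sterol transport and of liver X receptor (LXR) output, and 6 enzymes of fatty acid synthesis and desaturation. K562, a suspension line of erythroid leukemia cells, was kept overnight with 10 µM of the membrane-permeant iron chelator 21H7 (Chelator, 3 libraries) or with its solvent DMSO (3 libraries), and polyadenylated RNA was sequenced. Every library came from this 1 line, the labels name no engineered allele in either group, and the labels do not say whether libraries came from separate cultures, so p-values measure the spread between these libraries.

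Cells make cholesterol in a long chain of reactions at the endoplasmic reticulum. When membrane sterol is low, SCAP escorts the SREBP precursors away from the INSIG proteins to the Golgi, where proteases release the part that enters the nucleus and switches on genes of the chain. SREBF2 is best known for the sterol genes and SREBF1 for the fatty acid genes, while LXRs answer sterol excess with export genes. Several enzymes of both pathways hold iron: the P450 CYP51A1, the sterol oxidases MSMO1 and SC5D, and the fatty acid desaturases SCD, FADS1 and FADS2.

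The libraries held 78.6 to 101 M estimated counts. Fragment length was inferred from the quantification, as the median of length minus effective length over longer transcripts without counts. It was 252 to 264 bases in DMSO and 200 to 218 bases in Chelator, and this measure cannot be told apart from the treatment. All 7 erythroid and K562 markers examined were detected, and their summed level in TPM, a measure per transcript length scaled to the same total in every library, was 1329 to 1409 TPM in DMSO and 1477 to 1761 TPM in Chelator. Most of that sum was HBZ, which rose, and without HBZ the sum was 581 to 651 TPM in DMSO and 513 to 549 TPM in Chelator. KLF1, EPOR, NFE2 and TAL1 fell, with log2 fold changes of -0.72, -0.44, -0.40 and -0.28. Of 7 markers of other cell types, EPCAM took most of the summed level, which was 64.5 to 71.3 TPM in DMSO and 50.5 to 55.5 TPM in Chelator. MS4A1 was at 0 in all libraries, and the part of these markers in the results below was not tested. TFRC, the transferrin receptor that cells raise at low iron, was 2.89 ± 0.10 (SE) higher on the log2 scale in Chelator.

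The promoter sequences below show what the upstream DNA of members looks like where their mRNA moved together or apart. RefSeq promoter windows (GRCh38.p14, 250 bases before to 50 after a start site) were at hand for 30 of the 35 members, in 41 windows, some of which overlap. The sterol regulatory element in its letters TCACNCCAC was searched on both strands. It lay in a window of 1 of the 30 members, SREBF2 itself, which is 3.33% of them, against 1.39% of all 27305 genes with windows. The 250 bases upstream of SREBF2 (chr22:41832855-41833104, plus strand) follow, with the element in capitals.
SREBF2: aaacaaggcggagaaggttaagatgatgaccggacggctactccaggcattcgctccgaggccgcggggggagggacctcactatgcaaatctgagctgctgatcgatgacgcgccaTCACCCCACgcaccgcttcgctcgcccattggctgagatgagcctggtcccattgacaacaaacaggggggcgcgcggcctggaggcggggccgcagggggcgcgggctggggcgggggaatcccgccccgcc
This match is a description of letters, not a bound site, and the absence of these exact letters elsewhere says nothing about the factor.

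CCAAT, the box bound by NF-Y, lay in windows of 21 of the 30 members, which is 70% of them, against 39.7% of all 27305 genes in the same set of windows. GGGCGG, the letters of a GC box, lay in windows of 28 members, against 48.3% of all genes. The E-box CACGTG lay in windows of 5 members (ABCA1, INSIG1, LSS, SC5D and SCAP) against 8.77% of all genes. ACGTG or GCGTG, the core of a hypoxia response element, which CACGTG also contains, lay in windows of 26 members against 52.4% of all genes. Every motif was searched on both strands, and base composition is not matched between members and all genes.

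Stretches upstream of 3 annotated genes are shown, picked after the values were seen: HMGCS1, which had the largest rise among the sterol enzymes, and TM7SF2 and LBR, which encode enzymes for the same reaction and moved in opposite directions. Capitals mark CCAAT and GGGCGG on either strand.
HMGCS1: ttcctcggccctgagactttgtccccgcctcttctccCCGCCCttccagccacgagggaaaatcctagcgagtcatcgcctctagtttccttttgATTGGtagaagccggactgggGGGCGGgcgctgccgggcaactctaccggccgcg
TM7SF2: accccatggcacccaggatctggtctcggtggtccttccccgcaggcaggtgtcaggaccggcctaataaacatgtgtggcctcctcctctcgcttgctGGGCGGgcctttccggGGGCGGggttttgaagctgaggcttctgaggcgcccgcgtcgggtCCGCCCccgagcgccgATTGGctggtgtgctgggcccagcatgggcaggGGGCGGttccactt
LBR: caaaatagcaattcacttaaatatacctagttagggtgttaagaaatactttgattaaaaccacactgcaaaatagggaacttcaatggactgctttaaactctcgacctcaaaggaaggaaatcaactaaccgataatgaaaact
The HMGCS1 stretch (chr5:43313513-43313662, minus strand) holds 1 CCAAT and 2 GGGCGG. The TM7SF2 stretch (chr11:65111622-65111844, plus strand) holds 1 CCAAT and 4 GGGCGG. The LBR stretch (chr1:225428926-225429071, minus strand) holds neither, and its whole window held only the letters ACGTG or GCGTG among those searched.

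Most sterol synthesis mRNAs were more abundant after chelation, while 4 of the 6 fatty acid enzymes were less abundant. FADS1, 1 of those 4, lost its call under several alternatives. Of the 34 members tested with DESeq2's Wald test, 25 rose and 7 fell at an adjusted p under 0.05. Over all 24542 genes with an adjusted p, 37.7% passed this test, 19.5% as higher and 18.3% as lower. The median log2 fold change was 0.78 over the members tested and 0.02 over all genes. A total of 14 members also passed a log2 fold change of 1, each of them as higher, against 10.8% of all genes in either direction and 8.18% as higher. In 32 members the values of the groups did not overlap, as in 49.2% of all genes. ABCG1 had 9 counts in total over the 6 libraries and was not tested. In bulk RNA, a change per cell and a change in the mix of cells cannot be told apart.

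The scale on which these changes were read matters for the small ones. Over all genes 2007 were called higher and 639 lower with the default scaling, against 1555 and 1247 when changes were centred on the mean change of all genes, which was 0.21 on the log2 scale. After that centring the median over all genes was -0.19, and 21 members were higher and 8 lower at an adjusted p under 0.05. FASN and SCD then turned to -0.03 and -0.02, and GGPS1, LSS and EBP no longer passed. The number of members past the fold threshold was then 11.

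**Figure D1:**
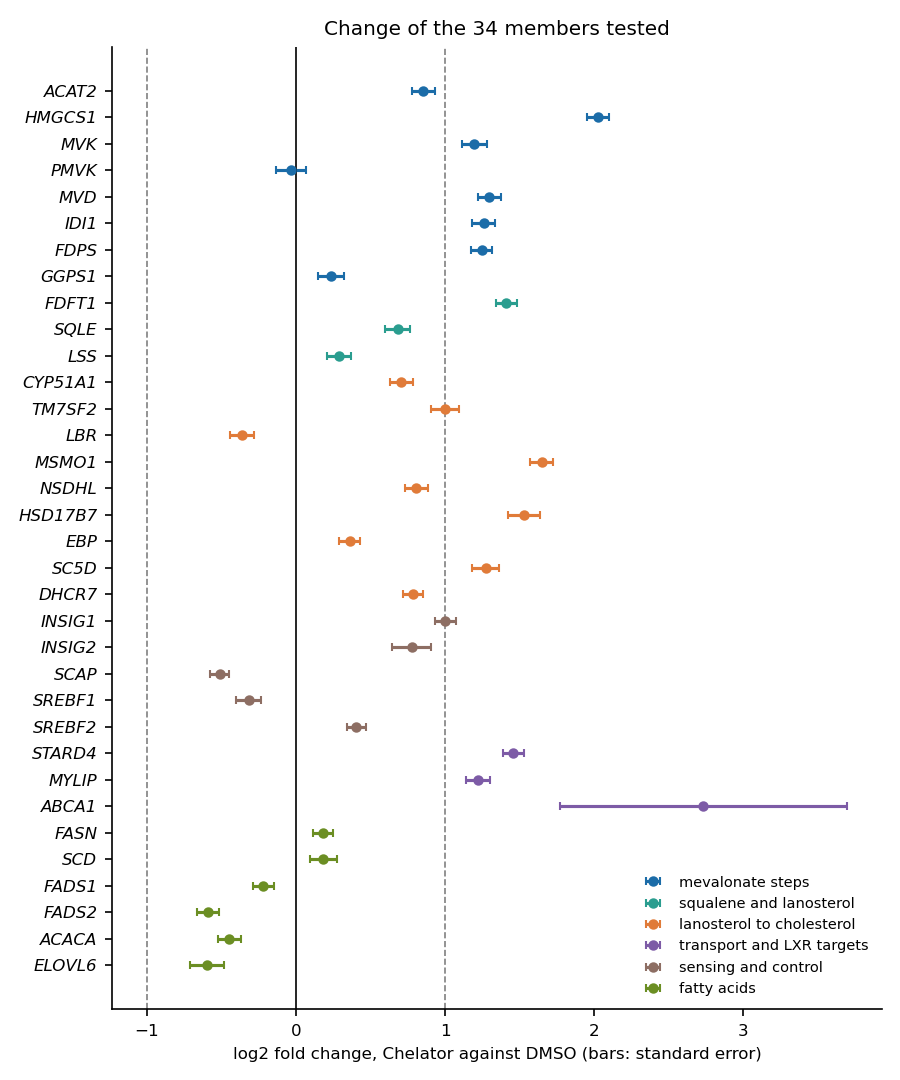
log2 fold change of Chelator against DMSO for the 34 members tested, in pathway order, with the standard error as bars and dashed lines at a log2 fold change of 1 in either direction. The sterol enzymes run from -0.36 (LBR) to 2.03 (HMGCS1), and the fatty acid enzymes from -0.59 to 0.18, where the signs of FASN and SCD turn when changes are centred on the mean change.

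Summed over the 20 sterol synthesis enzymes, the level was 1726, 1878 and 1708 TPM in the DMSO libraries and 3532, 3513 and 3527 TPM in the Chelator libraries. The 6 fatty acid enzymes together took 999, 1241 and 1026 TPM in DMSO and 1162, 1069 and 1102 TPM in Chelator. The sterol sums were 1771 ± 93.5 TPM in DMSO and 3524 ± 9.81 TPM in Chelator (mean ± SD, n = 3) and did not overlap, whereas the fatty acid sums did. Of the sterol enzymes 18 rose, 1 fell and 1 did not pass, and 10 passed the fold threshold.

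**Figure D2:**
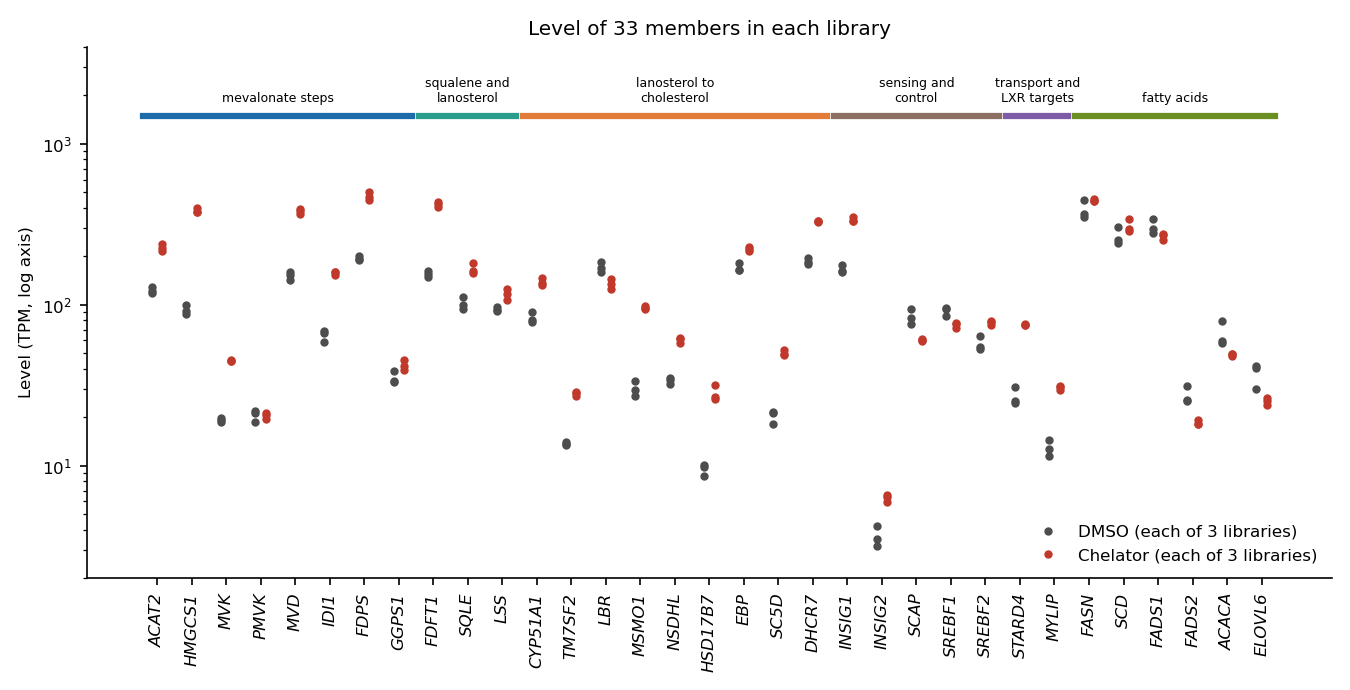
Level in TPM on a log axis of 33 members in each of the 6 libraries, in pathway order; ABCA1 and ABCG1, both below 0.1 TPM, are left out. The highest level in DMSO belongs to FASN (387 TPM on average) and the lowest to INSIG2 (3.63 TPM).

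The early steps build the isoprenoid units, and 7 of their 8 genes rose, with a median log2 fold change of 1.22. HMGCS1 (chr5:43287470-43313512, minus strand), the synthase that makes the HMG-CoA from which mevalonate comes, had 14590, 13810 and 14864 normalized counts (counts adjusted for library size and transcript length) in DMSO and 62802, 56159 and 57294 in Chelator. The groups stood far apart, and the rise was 4.07-fold (log2 fold change 2.03 ± 0.07, SE; adjusted p = 8.13e-174). It was the largest rise among the sterol enzymes. ACAT2, the thiolase that supplies acetoacetyl-CoA, rose by a log2 fold change of 0.85 ± 0.08, and part of its sequence is shared with TCP1 on the opposite strand.

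Next in the chain stand the kinases and the decarboxylase. MVK, mevalonate kinase, had 2987, 2596 and 2834 normalized counts in DMSO and 6669, 6204 and 6422 in Chelator, a log2 fold change of 1.20 ± 0.08. PMVK, phosphomevalonate kinase, had 1439, 1238 and 1248 in DMSO and 1258, 1290 and 1287 in Chelator. Its groups overlapped, and its log2 fold change of -0.03 (95% interval -0.24 to 0.17, adjusted p = 0.844) turned its sign under several other settings and passed as lower after centring (-0.24) and after GC and length trends were taken out (-0.22). MVD, the decarboxylase after it, went from 14608, 12781 and 13403 normalized counts to 34457, 31277 and 34457, a log2 fold change of 1.30 ± 0.08. PMVK catalyses the step between MVK and MVD, and no PMVK value in Chelator came near the increase of these neighbours.

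IDI1, the isomerase of the isoprenoid units, rose by 1.26 ± 0.08 on the log2 scale. Its value was 0.90 when only transcripts without sequence shared with other expressed genes, here IDI2-AS1, were counted. FDPS, which joins the units into farnesyl diphosphate, rose by 1.25 ± 0.07, and 14.3% of its 31-base words also occur in RUSC1-AS1 on the opposite strand. GGPS1, which lengthens farnesyl diphosphate for protein prenylation and so leads away from sterols, had 4192, 4040 and 4039 normalized counts in DMSO and 5341, 4609 and 4496 in Chelator. Its log2 fold change was 0.24 ± 0.09 (adjusted p = 0.021), which lost its call without DMSO replicate 2 (adjusted p = 0.056), DMSO replicate 3 (0.087) or Chelator replicate 1 (0.059). Counted together with a read-through gene on the same strand that shares its exons, GGPS1 stood at 0.35.

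The 3 enzymes that commit carbon to sterols rose by unequal amounts. FDFT1, squalene synthase, went from 18303, 16171 and 17394 normalized counts to 45475, 44855 and 47404, a log2 fold change of 1.41 ± 0.07 (adjusted p = 4.22e-86). SQLE, which uses oxygen to form squalene epoxide and is a known control point, rose by 0.68 ± 0.08. LSS, which closes the rings to give lanosterol, had 16910, 15121 and 16837 normalized counts in DMSO and 18954, 19302 and 21397 in Chelator, a log2 fold change of 0.29 ± 0.08. The groups did not overlap in any of the 3, as in 49.2% of all genes. The fitted changes were smaller from FDFT1 to LSS in pathway order, a difference that was not tested.

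From lanosterol to cholesterol, 8 of 9 genes rose and 1 fell, with a median log2 fold change of 0.81. CYP51A1 (chr7:92084987-92134803, minus strand), the heme-iron P450 that takes the first methyl group off lanosterol, had 15476, 14723 and 14864 normalized counts in DMSO and 26643, 22821 and 24117 in Chelator. This is a log2 fold change of 0.71 ± 0.08 (adjusted p = 4.83e-19). A read-through gene on the same strand shares 67.6% of the 31-base words of CYP51A1 and another 67.2%, and counting both in gave 0.70.

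MSMO1 (chr4:165327667-165343164, plus strand), the iron-dependent oxidase that removes the next methyl groups, went from 3490, 3306 and 3137 normalized counts to 10995, 10060 and 10116. Its rise was 3.14-fold (log2 fold change 1.65 ± 0.08, adjusted p = 1.75e-98). NSDHL, the dehydrogenase that acts after MSMO1, rose by 0.81 ± 0.08. HSD17B7, the ketosteroid reductase of the same cycle, rose by 1.53 ± 0.11 from a low level of 9.49 ± 0.81 TPM (SD, n = 3), and 17.3% of its 31-base words are shared with its pseudogene HSD17B7P2. All 3 genes of the demethylation cycle rose.

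SC5D (chr11:121292681-121313410, plus strand), the iron-dependent sterol desaturase near the end of the chain, had 1794, 1805 and 2079 normalized counts in DMSO and 4558, 4353 and 4789 in Chelator. The fitted rise was 2.41-fold (log2 fold change 1.27 ± 0.09, adjusted p = 3.25e-43). It rests in part on a change of transcripts: the mean effective length of its transcripts went from 1459 to 993 bases, and without the length offset the value was 0.71, below the fold threshold. Left out of the sum, the short transcript SC5D-205 took the value to 0.59. The gene rose in each of these fits, but its size depends on how transcripts are counted.

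EBP, the sterol isomerase, rose by 0.36 ± 0.07, and stood at 0.36 also when counted with a read-through gene that shares 33.2% of its 31-base words. DHCR7, a terminal reductase that turns dehydrocholesterol into cholesterol, went from 26842, 24094 and 25760 normalized counts to 45434, 42494 and 44286, a log2 fold change of 0.79 ± 0.07. Both genes stand below the fold threshold, with no overlap between groups, as in 49.2% of all genes.

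LBR and TM7SF2 encode reductases for the same sterol double bond, LBR being an inner nuclear membrane protein as well, and they moved apart. LBR had 158.7, 184.7 and 168.1 TPM in DMSO and 144.7, 135.5 and 125.5 TPM in Chelator. TM7SF2 had 13.7, 14.0 and 13.5 TPM in DMSO and 28.5, 27.2 and 28.5 TPM in Chelator. LBR fell by a log2 fold change of 0.36 ± 0.08 (adjusted p = 3.18e-05), and TM7SF2 rose by 1.00 ± 0.09 (adjusted p = 7.48e-25).

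TM7SF2 made up 7.94%, 7.04% and 7.41% of the TPM of the pair in DMSO and 16.4%, 16.7% and 18.5% in Chelator. LBR stayed the more abundant of the pair in every library. The summed level of both was 184 ± 13.4 TPM in DMSO and 163 ± 9.62 TPM in Chelator, and these values overlapped. TM7SF2 sits on the fold threshold, and without DMSO replicate 2 (0.94), Chelator replicate 1 (0.97) or Chelator replicate 3 (0.99) it did not pass. It also stayed below after centring (0.79) and after GC and length trends were taken out (0.80). The same held with limma on log2(TPM + 1) (0.98) and, narrowly, with a stricter count filter (0.999).

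**Figure D3:**
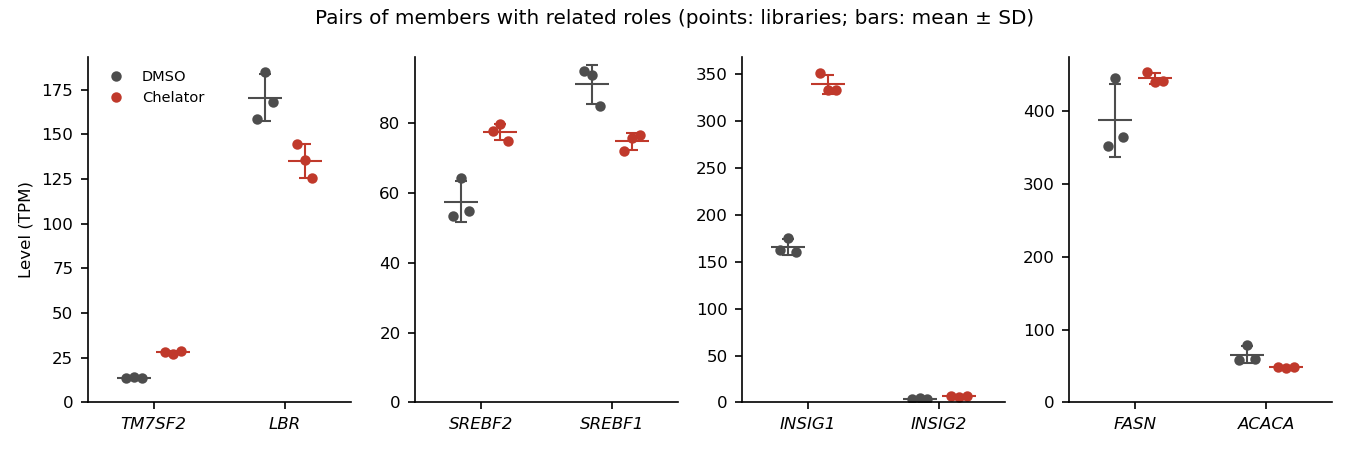
Level in TPM of 4 pairs of members with related roles, with each library as a point and the mean ± SD of 3 libraries per group as bars. TM7SF2 and LBR moved in opposite directions, as did SREBF2 and SREBF1; in TPM the FASN groups overlap.

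Set apart by cofactor, the 3 iron-dependent sterol enzymes rose, while of the 3 iron-dependent fatty acid desaturases 2 fell and SCD did not pass, though SCD passed as higher under 3 alternatives and the FADS1 call was lost under several. CYP51A1, MSMO1 and SC5D rose by 0.71, 1.65 and 1.27 on the log2 scale, inside the range of the other 17 sterol enzymes (-0.36 to 2.03, median 0.85). SCD, FADS1 and FADS2 had log2 fold changes of 0.18, -0.22 and -0.59. Of the 6 iron-dependent enzymes together, 3 rose, 2 fell and 1 did not pass.

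In the sensing machinery, the retention factors rose and the escort fell. INSIG1, which holds SCAP in the endoplasmic reticulum and is itself an SREBP target, went from 25579, 23386 and 24924 normalized counts to 52515, 47082 and 48303. This is a log2 fold change of 1.00 ± 0.07, just past the threshold, which it missed without DMSO replicate 2 (0.96) or Chelator replicate 1 (0.96). INSIG1 also missed it after centring (0.79), without the length offset (0.95) and, narrowly, with a stricter count filter (0.999). INSIG2, its homologue, had 506, 511 and 448 normalized counts in DMSO and 899, 762 and 849 in Chelator, a log2 fold change of 0.78 ± 0.13.

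The INSIG2 value leaned on transcript lengths, with a mean effective length of 2129 bases in DMSO and 1428 bases in Chelator. Without the length offset it was 0.20 (adjusted p = 0.246), and the call was lost, while over transcripts without shared sequence it was 1.76 (adjusted p = 4.77e-06). In estimated counts before any scaling, INSIG2 had 654, 510 and 497 in DMSO and 777, 740 and 707 in Chelator. INSIG1 was by far the more abundant of the pair, at 166 ± 8.48 TPM in DMSO against 3.63 ± 0.54 TPM for INSIG2.

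SCAP, the escort of the SREBP precursors, had 21688, 22525 and 23460 normalized counts in DMSO and 16082, 15329 and 16039 in Chelator, a log2 fold change of -0.51 ± 0.07 (adjusted p = 7.90e-14). SREBF2, the factor best known for sterol genes, rose from 22386, 22677 and 22633 normalized counts to 30872, 29892 and 28914. SREBF1, the factor best known for fatty acid genes, fell from 19870, 16516 and 17476 to 14291, 14149 and 14759. Their log2 fold changes were 0.41 ± 0.06 (SREBF2, adjusted p = 3.71e-10) and -0.32 ± 0.08 (SREBF1, adjusted p = 4.18e-04). SREBF2 made up 36.0%, 40.6% and 39.2% of the TPM of the pair in DMSO and 51.9%, 51.3% and 49.4% in Chelator, so that the pair stood near parity after chelation.

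Of the transport and LXR genes, 3 of 4 were tested and all 3 rose. STARD4, a soluble carrier of cholesterol and an SREBP target, went from 3225, 3390 and 3265 normalized counts to 9370, 8813 and 8962, a log2 fold change of 1.46 ± 0.07. MYLIP, an E3 ubiquitin ligase induced by LXR that marks lipoprotein receptors for breakdown, went from 2554, 2723 and 2769 to 6560, 5902 and 6275, a log2 fold change of 1.22 ± 0.08. ABCA1, an LXR-induced exporter of cholesterol, had only 0, 3 and 6 estimated counts in DMSO and 25, 16 and 28 in Chelator.

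The ABCA1 log2 fold change was 2.73 ± 0.96 (adjusted p = 0.0144), and it no longer passed without Chelator replicate 1 (adjusted p = 0.083) or Chelator replicate 3 (0.129). The value was 2.13 without DMSO replicate 1 and 3.83 without DMSO replicate 3. At below 0.1 TPM in every library it was close to the limit of detection. ABCG1, another LXR-induced exporter, had 0, 1 and 5 counts in DMSO and 1, 0 and 2 in Chelator, and a difference was not detectable at this depth.

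Of the 6 fatty acid enzymes 1 rose, 4 fell and 1 did not pass. FASN, fatty acid synthase, had 205691, 219442 and 210046 normalized counts in DMSO and 251743, 230266 and 237716 in Chelator, a log2 fold change of 0.18 ± 0.07 (adjusted p = 0.0183). The call was lost without DMSO replicate 1 (adjusted p = 0.074) or DMSO replicate 3 (0.067) and without the length offset (0.081), and with the replicate block its adjusted p was 0.0503. It was also lost after GC and length trends were taken out (adjusted p = 0.094), and over transcripts without shared sequence FASN stood at -0.06 (adjusted p = 0.613). SCD, the desaturase that makes oleate, had 96726, 102262 and 98491 in DMSO and 128053, 101613 and 108181 in Chelator. Its groups overlapped, and its log2 fold change was 0.18 (95% interval 0.01 to 0.36 before adjustment, adjusted p = 0.0901); without Chelator replicate 2 it passed at 0.25 (adjusted p = 0.0211). SCD also passed as higher with TMM size factors (0.23, adjusted p = 0.0299) and after trends with GC content and with length were taken out (0.29, adjusted p = 0.00029).

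The other 4 fell. ACACA, the carboxylase that supplies malonyl-CoA, went from 28744, 33194 and 29301 normalized counts to 23238, 21277 and 22453, a log2 fold change of -0.45 ± 0.08. ELOVL6, which lengthens palmitate, had 10051, 8320 and 7124 in DMSO and 5818, 5185 and 5879 in Chelator, a log2 fold change of -0.59 ± 0.11. FADS2, the first desaturase of polyunsaturated fatty acids, went from 5373, 5600 and 5373 to 3660, 3457 and 3764, a log2 fold change of -0.59 ± 0.07. FADS1, the desaturase that follows FADS2, had a log2 fold change of -0.22 ± 0.07 (adjusted p = 0.00774), and its exons overlap those of FADS2 on the opposite strand. Counted only over transcripts without shared sequence, FADS1 stood at 0.39 with an adjusted p of 0.672. That fit left out all transcripts with shared sequence, and the FADS1 counts that remained are not given. It therefore does not settle the direction of FADS1, and the same limit applies to FADS2. The FADS1 call was also lost with edgeR (adjusted p = 0.0566) and with limma on log2(TPM + 1) (0.125) and log2(TPM + 0.1) (0.116), and that of FADS2 without shared sequence (-0.68, adjusted p = 0.316). The median over the 6 genes was -0.33.

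Transcript usage was tested over 31 members with edgeR's diffSpliceDGE, and 7 were called at an Simes adjusted p under 0.05 with a transcript's share of the gene's TPM changing by more than 5 percentage points, against 9.26% of all genes tested. They were MVK, FDFT1, TM7SF2, SC5D, DHCR7, SCAP and ACACA. Only MVK and DHCR7 were called in all 6 fits that left out 1 library each. Without Chelator replicate 3, 2 members were called, and without Chelator replicate 2, 4 members. With limma's diffSplice the calls of SC5D (adjusted p = 0.0569), TM7SF2 (0.0967) and ACACA (0.177) were lost. The shorter inferred fragments of the Chelator libraries move with these values, and their part in them was not tested.

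SC5D-205, a protein-coding transcript of 589 bases (chr11:121292771-121307124), was at 0 in all 3 DMSO libraries and took 28.3%, 40.4% and 44.4% of SC5D in Chelator. Its estimated counts there were 359, 558 and 569, while SC5D-201, the canonical transcript of 6854 bases, had 882, 906 and 785 in DMSO and 1415, 1077 and 962 in Chelator. The SC5D call had a Simes adjusted p of 6.62e-05 and held in 3 of the 6 fits that left out a library. SC5D-208 was at 0 in Chelator replicate 3 and at 17.7% in Chelator replicate 1, so the division among SC5D transcripts was uneven between replicates.

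MVK-201, the canonical transcript of mevalonate kinase, went from 16.8% ± 1.4 to 5.72% ± 1.0 (SD, n = 3) of the gene, with an Simes adjusted p of 3.94e-04 for MVK. MVK-205, annotated as a target of nonsense-mediated decay, was at 0%, 0% and 2.8% in DMSO and at 5.7%, 12.6% and 11.2% in Chelator. MVK-203, which carries the same annotation, went from 23.4% to 30.9%. The shares of both annotated decay targets were higher in every Chelator library than in any DMSO library.

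**Figure D4:**
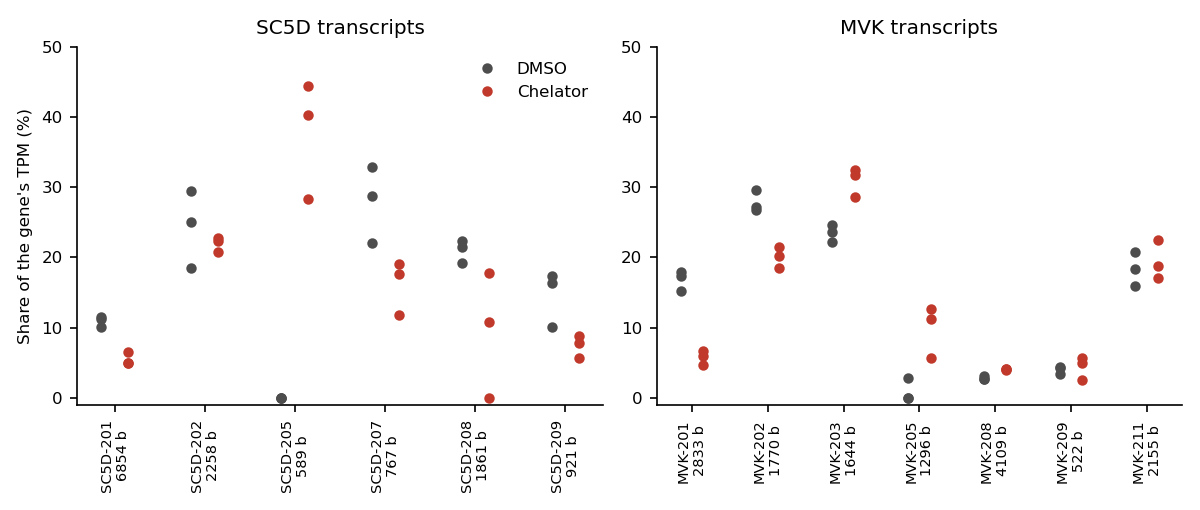
Share of the gene's TPM taken by each transcript of SC5D and MVK above 3% in either group, with 1 point for each library and the transcript length in bases (b) under its name. SC5D-205 is at 0 in DMSO and between 28.3% and 44.4% in Chelator, and MVK-201 is lower in all Chelator libraries.

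By the same edgeR test, in DHCR7 (Simes adjusted p = 2.49e-13), DHCR7-209 went from 33.9% to 27.9% and DHCR7-206 from 0.557% to 5.36%. In FDFT1 (3.69e-07), the canonical FDFT1-201 went from 58.7% to 51.8%, and it was called in 5 of the 6 fits. For ACACA (5.64e-04), ACACA-231 went from 61.1% to 49.8%. For SCAP (0.00533), the retained-intron transcript SCAP-209 went from 3.33% to 8.65%. For TM7SF2 (0.0111), the canonical TM7SF2-201 went from 69.0% to 62.7%. ACACA and TM7SF2 were called in 3 of the 6 fits and SCAP in 4.

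SREBF1 was not called by the edgeR test (Simes adjusted p = 0.325) but was called with limma's diffSplice (Simes adjusted p = 1.04e-05). SREBF1-202 took 7.0%, 13.0% and 10.3% of it in DMSO and 16%, 16.03% and 16.05% in Chelator. By the edgeR test FASN passed the p threshold (0.00117), but its shares moved by at most 3.08 percentage points.

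**Figure D5:**
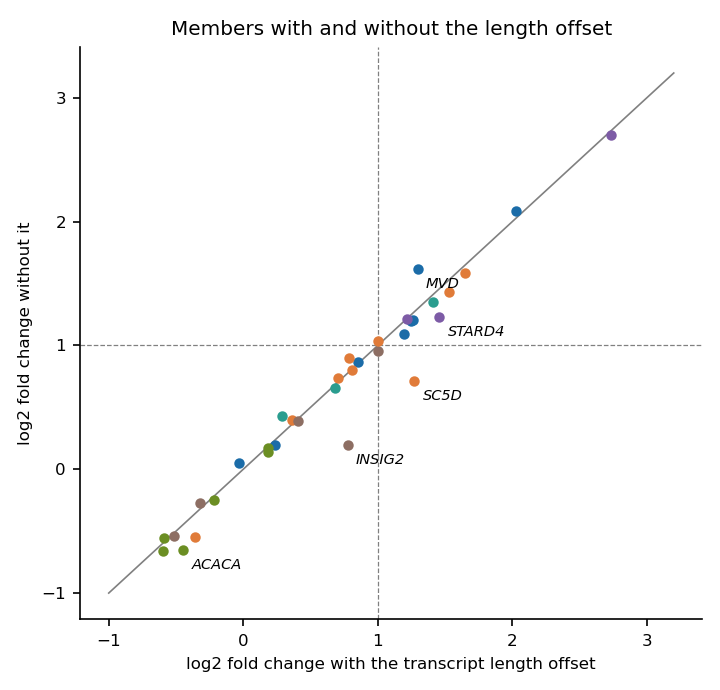
log2 fold change of each tested member with the transcript length offset (x axis) and without it (y axis), with the diagonal for equal values, dashed lines at 1 and colours by role as in the plot of fold changes. SC5D (1.27 and 0.71) and INSIG2 (0.78 and 0.20) lie farthest below the diagonal, and MVD (1.30 and 1.61) lies above it.

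The neighbouring genes were taken from lists of 52 genes around the pathway, 50 of which were tested, and 17 of them rose and 13 fell, against 19.5% of all genes as higher and 18.3% as lower. Among 12 other SREBP targets, 8 rose and 3 fell, with a median log2 fold change of 0.32. ACSS2, which makes acetyl-CoA from acetate, had 5848, 5376 and 6041 normalized counts in DMSO and 26974, 24015 and 24348 in Chelator. Its log2 fold change of 2.13 ± 0.08 was of the same order as that of HMGCS1, while GPAM, which starts glycerolipid synthesis, fell by 0.86 ± 0.12 on the log2 scale.

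Of 8 genes that process SREBPs or degrade sterol enzymes, 2 rose and 1 fell, counts near these shares of all genes. MARCHF6, an E3 ligase that turns over SQLE, rose by 0.28 ± 0.07. RNF139, an E3 ligase of the endoplasmic reticulum, fell by 0.22 ± 0.09 on the log2 scale (adjusted p = 0.039). Of 5 electron donors to the oxidative steps, 1 rose, CYB5B, a cytochrome b5, by 0.50 ± 0.09, and none of the others passed, which is also near the share of all genes.

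The branches that draw isoprenoids away from sterols lead to ubiquinone, dolichol and prenylated proteins. Of their 10 genes, 0 rose and 6 fell by DESeq2 at an adjusted p under 0.05, with a median of -0.29. Over all genes, 19.5% passed as higher and 18.3% as lower. The largest fall was that of ICMT, which methylates prenylated proteins, from 17647, 16668 and 18227 normalized counts to 11050, 9736 and 10889 (log2 fold change -0.73 ± 0.08).

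In cholesterol handling, 4 of 10 tested genes rose and 1 fell, beside the same shares over all genes. NPC2, which lifts cholesterol out of the lysosome, rose by 0.76 ± 0.12, and SOAT1, which esterifies cholesterol, fell by 0.23 ± 0.09 on the log2 scale. Of 5 genes of the LXRs and their targets, 2 rose and 2 fell. NR1H3, which encodes the alpha form of LXR, rose by 0.44 ± 0.11, and RXRA, the partner receptor of LXR, had a log2 fold change of -0.32 ± 0.08.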

How the data were processed

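Polyadenylated RNA of 3 DMSO and 3 Chelator libraries had been quantified by the authors with Salmon (1.10.2 in the submitters' processing notes). The deposited files give estimated counts and TPM for 252045 transcripts. The bias options, annotation and strand setting are not given in the sources used here, and the authors' comparison tables were not used. Estimated counts were summed over GENCODE 44 genes (433 unmatched transcripts were left out) and rounded. Genes with a total above 10 were tested with DESeq2 1.42.0 in R 4.3.3, with the mean effective transcript length as an offset. Calls needed an adjusted p (Benjamini-Hochberg) under 0.05, and those past the fold threshold also an absolute log2 fold change above 1. Transcript usage used edgeR 4.0.16 on transcripts reaching 10 counts in 3 or more libraries. Alternatives included limma 3.58.1. The functions were tested on simulated data. Values are given for all members, and for each neighbouring list only for genes past the fold threshold and for the largest rise and the largest fall that passed the adjusted p. The members and lists were chosen with earlier results of these data known. Intervals cover the spread between libraries only. Sequences came from RefSeq, and motifs were fixed with the lists. A further 2 genes were taken out of the neighbouring lists and their counts, and are not reported here.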

Additional observations from a re-analysis of the deposited data

How the results depend on the processing

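The replicate numbers were not taken to pair the libraries, since same-numbered libraries correlated at -0.075, 0.130 and 0.101 in their deviations from the group means. With a replicate block, 2345 genes, 31 members at the adjusted p threshold and 14 members past the fold threshold were called, against 2646, 32 and 14 without it, and 8 members against 7 for transcript usage. FASN lost its call under the block. Genes past the fold threshold were 797 with limma on log2(TPM + 1) and 674 when tested against the threshold itself, where 8 members passed; the smaller counts follow from the pseudocount and from the stricter hypothesis. Transcript usage called 14 members with limma, without SC5D, TM7SF2 and ACACA, and 3 with a share change above 10 percentage points. Leaving out 1 library at a time gave 2207 to 2607 genes, 30 to 33 members at the adjusted p threshold, 11 to 14 past the fold threshold and 2 to 8 for usage. Of 573 values of single members under alternatives, 536 kept their direction and their side of the adjusted p threshold, 24 no longer passed it, 5 newly passed it and 8 changed sign. The fold threshold is a separate matter, and MVK, IDI1, TM7SF2, SC5D and INSIG1 fell below it, and INSIG2 rose above it, under at least 1 alternative while still passing the adjusted p. PMVK turned to 0.0543 without the length offset, 0.0109 with edgeR and 0.0107 with TMM, and ran from -0.0762 to 0.037 with 1 library left out. FASN turned to -0.0273 and SCD to -0.024 after centring, FASN to -0.0622 and FADS1 to 0.39 without shared sequence; the cause was not tested. With limma on either TPM scale the calls of GGPS1, ABCA1 and FASN were lost too, and that of FASN also without the GC and length trends. Counting SC5D without SC5D-205 and joining read-through genes were chosen after seeing the data. The low counts of ABCA1 and ABCG1 limit what depth can show.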
